A study of Homo sapiens with 36 samples.

Results

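The response of SLFN11-proficient DU145 cells to 6 h of camptothecin was described from 6 of the 36 arrays in the series, 3 of untreated parent cells and 3 of parent cells exposed to the drug. The arrays were chosen by their titles alone, as parent DU145 control 1 to 3 and parent DU145 camptothecin 6 h 1 to 3. DU145 is an established prostate carcinoma line, grown here in RPMI1640 with 10% fetal bovine serum. Treated cells received 250 nM camptothecin for 6 h. Control cells carry the label none for treatment, dimethyl sulfoxide is named as the vehicle in the treatment protocol, and the harvest time of the controls is not given. Arrays of parent cells after 12 h, and of DU145 cells labelled SLFN11 knockout as control and after 6 h at the same dose, 3 each, were used for comparison. Whether the knockout cells are 1 clone or a pool is not stated in the labels, and neither is whether replicates were separate cultures, so the p-values below measure only the spread between these arrays.

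Camptothecin traps topoisomerase I on DNA after it has cut a strand. The trapped complex is an obstacle both to replication forks, where it becomes a break, and to RNA polymerase II moving along a gene, ahead of which topoisomerase I normally relaxes the DNA. SLFN11, a Schlafen family protein, is recruited to stressed replication forks and sensitises cells to drugs that damage replicating DNA. The integrated stress response is the pathway by which kinases that phosphorylate eIF2 lower general translation and raise the transcription factor ATF4, which together with its partners CHOP (DDIT3) and ATF3 drives genes for amino acid supply and stress adaptation.

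Each gene was followed by its brightest probe set, in log2 units after the authors' RMA normalization. Medians of the 6 arrays lay between 4.8 and 4.86, and the arrays correlated across genes at 0.979 to 0.986 within the controls, 0.985 to 0.986 within the treated group and 0.974 to 0.981 between the groups. Keratin 18 (KRT18) and the epithelial adhesion molecule EPCAM gave control signals of 11.60 and 11.17, while the prostate luminal genes KLK2 and TMPRSS2 gave 6.21 and 6.16. These are single members of lists that overlap. Control means ran from 6.12 to 11.60 over the epithelial markers and from 4.35 to 9.45 over the prostate luminal markers. The highest were 10.37 among T-lineage, 10.52 among B and myeloid and 11.26 among stroma and vessel markers. Probe sets differ in affinity, so such signals do not settle the tissue label. Markers of prostate luminal cells (8 measured), of the T lineage (12), of B and myeloid cells (10) and of stroma and vessels (11) did not include 1 that passed the test after camptothecin, and the 4 median log2 changes lay between 0.01 and 0.08. Of 12 epithelial markers 1 rose and 2 fell. The brightest SLFN11 probe set read 8.35, 8.69 and 8.63 in the controls and 8.95, 9.01 and 9.39 after the drug. Its groups did not overlap, but the difference of 0.56 ± 0.17 (SE) did not pass (adjusted p = 0.0566, limma with Benjamini-Hochberg adjustment over 22260 genes, as for every adjusted p below), while the mean over its probe sets rose by 0.61 (adjusted p = 0.0114). That probe set averaged 8.97 in knockout controls, so it does not report the edit, whose position the labels do not give.

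At an adjusted p below 0.05, 2247 of 22260 genes changed, 10.1% of those tested, in a fit of the 18 DU145 arrays, and 866 when only the 6 arrays were fitted. Of the 2247 genes, 1263 rose (5.67%) and 984 fell (4.42%). These shares are the background for the counts of members below. The lists and their members were chosen with earlier results of these data known. A list share above the background is therefore no independent evidence. The balance of rises and falls depends on scaling. Of changed genes 56.2% rose with the deposited normalization and 47.8% after cyclic loess. The share was 24.8% when each array was shifted to an equal housekeeping median. Under that shift 580 of 22260 genes rose and 1756 fell, the background for member counts given under it. The 22 measured housekeeping genes had a median log2 change of 0.02 with the deposited scaling, where 2 fell. Under the shift their median was -0.14 and 5 fell, so the shift lowered its own reference genes. It moved the median of all genes by -0.16. Every single gene named below as changed moved by more than that, so none of them changed direction under the shift. The call was lost under the shift, however, with adjusted p-values of 0.0542 to 0.363, for CASP8AP2, CASTOR1, CCN1, CCNT1, CLK2, CXCL1, DPF1, DPF2, ETS1, FRMD4B, HEXIM1, HSPA5, HUS1, MEGF11, RGS6, SPECC1, SRSF4, TOP3A, UTRN and YARS1. As means over all probe sets, which gave adjusted p-values of 0.0736 to 0.888 for them, the call was lost for CASTOR1, CLK2, CWC15, DLC1, DPF1, DPF2, FGFR4, FRMD4B, KIF6, LINC00630, MED19, MED21, MEGF11, RGS6, SLC7A3, SMAD3, SMARCA2 and ZNF252P. Of the 186 genes named below as changed, 153 passed in every fit that left out 1 of the 6 arrays. The call was lost in at least 1 such fit, with adjusted p-values of up to 0.0590 to 0.182, for ARID2, BRIP1, CASP8AP2, CASTOR1, CCN1, CREBBP, CWC15, CXCL1, CXCL16, DNAJC3, DPF1, EIF2AK4, ETS1, FGFR4, FRMD4B, HEXIM1, HUS1, LINC00630, MED11, MEGF11, PSMD1, PSMD14, RGS6, SLC7A3, SMARCA2, SMARCC1, SPECC1, SRSF4, SS18, TOP2A, TOP3A, UTRN and ZNF252P. A change of at least 2-fold was reached by 224 risers (1.01%) and 172 fallers (0.773%).

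The promoters of the leading stress genes are shown first because several of the genes that rose most belong to one known regulatory circuit. The 250 bases before the annotated start are given 5′ to 3′ on the gene's strand from RefSeq (GRCh38.p14), for the 5 members of the ATF4 and CHOP and amino acid synthesis lists that rose most. Capitals mark matches to 3 motifs, searched on both strands over 250 bases before to 50 after the start: TGATGNAA, the half-site pair read by C/EBP and ATF dimers (shared with the amino acid response element), the cyclic AMP response element TGACGTCA, and the AP-1 site TGANTCA. ATF3 lies at chr1:212565157-212565406 on the plus strand, DDIT3 at chr12:57520515-57520764 on the minus strand, CHAC1 at chr15:40953221-40953470 on the plus strand, ASNS at chr7:97872409-97872658 on the minus strand and CEBPB at chr20:50190333-50190582 on the plus strand.
ATF3: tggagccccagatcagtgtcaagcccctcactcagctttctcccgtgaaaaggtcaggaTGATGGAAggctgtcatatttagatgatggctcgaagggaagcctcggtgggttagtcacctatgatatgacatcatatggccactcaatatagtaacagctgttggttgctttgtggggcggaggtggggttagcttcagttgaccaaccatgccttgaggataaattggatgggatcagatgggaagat
DDIT3: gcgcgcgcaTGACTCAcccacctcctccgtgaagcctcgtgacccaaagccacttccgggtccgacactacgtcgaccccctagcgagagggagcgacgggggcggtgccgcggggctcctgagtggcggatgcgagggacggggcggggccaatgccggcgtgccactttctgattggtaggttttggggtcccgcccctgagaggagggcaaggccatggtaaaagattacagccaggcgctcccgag
CHAC1: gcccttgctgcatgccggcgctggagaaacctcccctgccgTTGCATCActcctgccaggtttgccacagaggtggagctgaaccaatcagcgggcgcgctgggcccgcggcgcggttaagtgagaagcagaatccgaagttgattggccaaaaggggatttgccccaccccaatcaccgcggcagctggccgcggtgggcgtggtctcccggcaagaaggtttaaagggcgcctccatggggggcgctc
ASNS: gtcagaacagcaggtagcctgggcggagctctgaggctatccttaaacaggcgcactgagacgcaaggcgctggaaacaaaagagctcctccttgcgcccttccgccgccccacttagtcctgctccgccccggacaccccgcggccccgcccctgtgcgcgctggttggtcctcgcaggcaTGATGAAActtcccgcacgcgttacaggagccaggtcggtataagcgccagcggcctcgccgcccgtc
CEBPB: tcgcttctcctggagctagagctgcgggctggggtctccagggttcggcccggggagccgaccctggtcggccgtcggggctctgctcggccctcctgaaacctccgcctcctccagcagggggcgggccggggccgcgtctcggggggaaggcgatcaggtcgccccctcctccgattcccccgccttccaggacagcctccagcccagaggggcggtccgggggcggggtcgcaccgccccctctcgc
ATF3 held 1 C/EBP-ATF match beginning at position -191 from the start, ASNS 1 at position -68, and CHAC1 1 on the opposite strand at position -209. DDIT3 held 1 AP-1 match at position -241, and CEBPB none of the 3. Over all 27305 promoters in the table the C/EBP-ATF motif was present in 3.7%, the cyclic AMP element in 2.0% and the AP-1 motif in 7.8%. Among the 185 genes with a promoter that rose at least 2-fold, which include the 5 shown, the shares were 5.9%, 5.4% and 8.1%. Over all 1023 risers with a promoter they were 2.7%, 5.6% and 5.1%, and among 15873 measured genes 2.6%, 2.5% and 6.0%. A match is a run of letters, not evidence of binding.

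The largest increases were in ATF3 and DDIT3. ATF3, a stress-induced bZIP factor, read 4.66, 5.34 and 5.25 in the controls and 10.11, 9.96 and 9.86 after camptothecin, a rise of 4.90 ± 0.31 on the log2 scale or 29.8-fold (adjusted p = 4.1e-07). DDIT3, which encodes CHOP, read 4.81, 5.91 and 5.29 and then 9.29, 9.51 and 9.31, a 16.4-fold rise (adjusted p = 1.62e-06). In both genes every treated array was at least 3 units above every control. The size depends on the probe set: 6 of 10 ATF3 and 6 of 9 DDIT3 probe sets rose and none fell. Their means over all probe sets rose by 2.64 and 2.13. Control means of 5.08 and 5.33 lay below the median gene level of 7.1. CHAC1, a glutathione-degrading enzyme and a standard target of this circuit, went from 7.68, 7.99 and 7.87 to 10.80, 10.89 and 11.004, 8.29-fold up.

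The rest of the circuit rose in part. Of 12 measured ATF4 and CHOP axis genes 7 rose and none fell, with a median log2 change of 0.92 against 0.04 over all genes tested. The other risers were the bZIP factors CEBPB (1.60 ± 0.09) and CEBPG (1.29 ± 0.11), the secreted hormone STC2 (1.18 ± 0.13) and the pseudokinase TRIB3 (0.67 ± 0.11). ATF4 itself, which is controlled mainly through translation, changed by 0.38 ± 0.12 and did not pass (adjusted p = 0.0522), whereas the mean over its 7 probe sets rose by 0.57 (adjusted p = 0.000329). PPP1R15A and PPP1R15B, the regulatory subunits that direct phosphatase to eIF2, rose by 2.34 ± 0.17 and 1.29 ± 0.09. Among the eIF2 kinases, EIF2AK4 (GCN2) fell by 0.50 ± 0.15 (adjusted p = 0.0448, up to 0.15 when 1 array was left out). Of 15 measured genes of this eIF2 list 4 rose and 1 fell, with a median of 0.13, which turned to 2 and 3 with a median of -0.03 under the housekeeping shift and to 2 and 0 when only the 6 arrays were fitted.

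Some amino acid supply genes rose. Of 17 measured synthesis genes 5 rose and none fell, with a median of 0.23 (3 and 1 under the housekeeping shift, 2 and 0 when only the 6 arrays were fitted). ASNS, asparagine synthetase, read 8.35, 8.39 and 8.72 before and 10.09, 10.13 and 10.43 after (1.73 ± 0.13, adjusted p = 1.31e-06). The groups did not overlap. CTH, which makes cysteine, rose by 1.00 ± 0.17 and PHGDH, the first enzyme of serine synthesis, by 0.84 ± 0.11. Of 22 transporters 3 rose and 2 fell (3 and 3 under the shift, with a median of -0.06): SLC3A2 (0.83 ± 0.09), SLC7A5 (0.50 ± 0.08), which together form a large neutral amino acid carrier, and the glutamine carrier SLC1A5 (0.65 ± 0.10) rose, and the taurine carrier SLC6A6 fell by 0.65 ± 0.10. The other faller, the cationic carrier SLC7A3, read 2.27, 5.32 and 2.30 after treatment against 6.41, 5.95 and 5.93, so its value rests on 2 of the 3 treated arrays and lost its call when 1 array was left out (adjusted p = 0.175). Alanyl and tyrosyl tRNA synthetase (AARS1, YARS1) rose by 0.60 ± 0.12 and 0.49 ± 0.10, 2 of the 3 risers among 15 synthetases. SESN2 and DDIT4, stress-induced inhibitors upstream of mTORC1, rose by 2.59 ± 0.14 and 1.93 ± 0.21. SESN2 read 7.17, 6.90 and 7.03 and then 9.66, 9.68 and 9.52, and all 11 of its probe sets rose. The other 14 mTORC1 restraint genes gave 1 riser, CASTOR1 (0.44 ± 0.11), and no faller.

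Of 19 measured genes of the endoplasmic reticulum unfolded protein response 6 rose and 2 fell, which became 2 and 2 under the housekeeping shift, with the median turning from 0.10 to -0.06. HERPUD1, a component of the degradation complex at that membrane, rose by 1.43 ± 0.11. XBP1 (0.67 ± 0.12) and the chaperone HSPA5 (0.54 ± 0.10) rose less than 2-fold. The sensor ATF6 fell by 0.66 ± 0.12 and the kinase inhibitor DNAJC3 by 0.39 ± 0.11. The 6 risers spanned 4.1 to 12.7 kb of genome and the 2 fallers 117.8 and 197.8 kb.

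Immediate early genes, which are switched on without new protein synthesis, rose in part. Of 13 JUN, FOS and MAF family genes 8 rose and none fell, with a median of 0.63. JUN read 8.69, 8.67 and 8.98 in the controls and 10.69, 10.65 and 10.67 after the drug (1.89 ± 0.12), JUNB rose by 1.79 ± 0.13 and JUND by 1.26 ± 0.12. FOSL2 and FOSL1 rose by 1.18 ± 0.10 and 0.63 ± 0.09, but the classical members FOS (0.47 ± 0.17, adjusted p = 0.106) and FOSB (0.47 ± 0.28, adjusted p = 0.347) did not pass by their brightest probe set. As means over all probe sets FOS and FOSB rose by 0.51 (adjusted p = 0.00409) and 0.53 (adjusted p = 0.00289). Of 17 EGR, NR4A, IER and CSRNP genes 6 rose and none fell, led by CSRNP1 (1.86 ± 0.13), IER2 (1.72 ± 0.17) and EGR1 (1.28 ± 0.14). EGR2 changed by 0.18 ± 0.19 and did not pass. Of 16 Kruppel-like zinc finger factors 3 rose and 1, of 620.0 kb, fell (2 and 2 under the housekeeping shift). Among the risers, KLF10 and KLF6 changed by 1.69 ± 0.16 and 1.10 ± 0.10. Feedback regulators of these pathways rose as well: 8 of 20 MAP kinase phosphatase and ERK feedback genes rose and none fell, with DUSP10 at 1.34 ± 0.18, DUSP5 at 1.24 ± 0.18 and DUSP1 at 1.08 ± 0.09. Of 15 mRNA decay and antiproliferative genes 6 rose and none fell, among them ZFP36L1 (1.03 ± 0.14), ZFP36L2 (0.83 ± 0.14) and the deadenylase CNOT8 (0.81 ± 0.10).

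NF-kB genes rose on both the activating and the inhibiting side. Of 21 measured genes 11 rose and none fell, with a median of 0.43. TNFAIP3, the A20 ubiquitin editor that ends NF-kB signalling, went from 9.15, 9.30 and 9.15 to 11.20, 11.07 and 11.25 (1.97 ± 0.09, adjusted p = 2.06e-08). Its treated arrays lay above 11 and its controls below 9.4. The inhibitor NFKBIA rose by 1.20 ± 0.13, the subunits NFKB2 and RELB by 1.41 ± 0.14 and 1.37 ± 0.21, and BIRC3, a ubiquitin ligase of the same pathway, by 1.23 ± 0.13. Among 21 chemokines 3 rose and 1 fell. CCL20 rose from 5.70, 4.69 and 5.52 to 7.60, 7.68 and 7.91, and CXCL8 from 8.45, 8.24 and 8.33 to 9.95, 10.00 and 9.98. CXCL1 read 7.72, 7.46 and 6.16 after treatment against 5.56 to 5.72, a rise of 1.47 ± 0.42 that lost its call without 1 array (adjusted p = 0.155). LIF (0.91 ± 0.13) was the riser among 20 interleukins and colony-stimulating factors, HBEGF (1.39 ± 0.13) among 13 EGF family genes, and TNFRSF9 (1.92 ± 0.16) the largest of 3 among 21 TNF family genes. IRF1, an interferon regulatory factor, rose by 2.08 ± 0.19 and IFIT2 by 1.92 ± 0.21, while IFITM3 and IFITM2, short membrane restriction factors, fell by 1.55 ± 0.14 and 0.82 ± 0.12. As means over all probe sets the rises were smaller for IRF1 (1.08), IFIT2 (0.90) and RELB (0.64). They were not smaller for TNFAIP3 (2.01), NFKBIA (1.38) and NFKB2 (1.45). The antiviral list as a whole had 4 risers and 2 fallers among 26 genes and a median of -0.05.

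Genes that arrest the cycle or set survival rose in small numbers but clearly. GADD45A, a stress sensor that binds cell cycle kinases, read 9.03, 9.14 and 9.11 and then 11.79, 11.72 and 11.69 (2.64 ± 0.10, adjusted p = 3.18e-09). GADD45B rose by 1.46 ± 0.12, and the kinase inhibitors CDKN1A and CDKN2B by 1.48 ± 0.10 and 0.95 ± 0.12. These were the 4 risers among 11 such genes, with no faller. Both a pro-apoptotic and anti-apoptotic BCL2 relatives rose: PMAIP1 (NOXA) by 1.68 ± 0.11, BCL2A1 by 1.16 ± 0.14 and MCL1 by 0.67 ± 0.09, among 10 and 6 measured genes of the 2 kinds. TXNIP, the thioredoxin inhibitor, rose from 9.01, 9.48 and 9.37 to 12.05, 12.03 and 12.23. MYC rose by 1.61 ± 0.14 and its antagonist MXD1 by 1.22 ± 0.15. KDM6B, which removes a repressive histone mark, SERTAD1, a transcriptional cofactor, and the circadian repressor NFIL3 rose by 2.05 ± 0.17, 1.93 ± 0.13 and 1.71 ± 0.16.

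**Figure D1:**
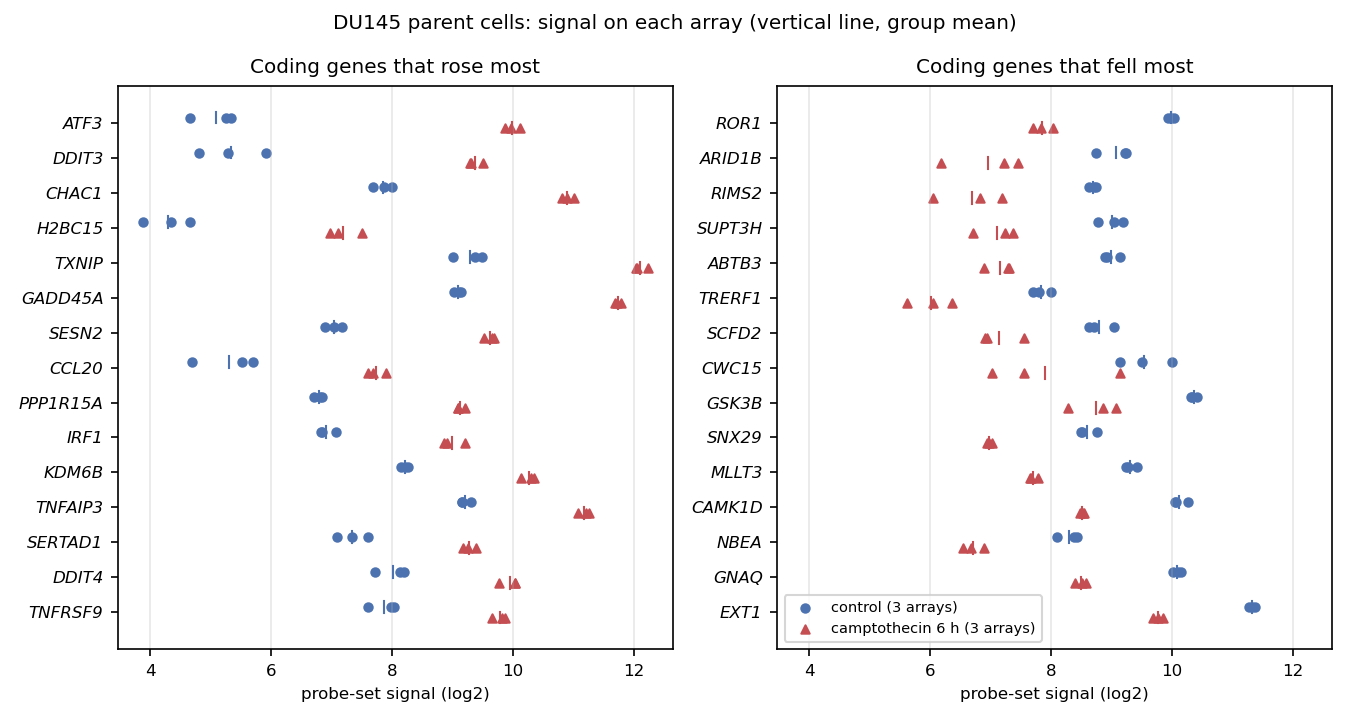
Signal of the 15 coding genes that rose most and the 15 that fell most after camptothecin, in log2 units, with 1 point for each of 3 control arrays (circles) and 3 treated arrays (triangles) and a vertical line at each group mean. The genes were selected so that the groups do not overlap and 1 group mean is at least 7.1, which leaves out genes of lower signal such as SLC7A3 and IFIT2. ATF3 moves from about 5 to about 10, and CWC15 has 1 treated array at 9.13 next to its lowest control at 9.14.

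The genes that fell most were of another kind. For 3501 genes (15.7%) every treated array lay above every control, and for 2637 (11.8%) below. Among the coding genes apart in this way with a group mean of at least 7.1, the 15 largest decreases ran from 2.13 to 1.55 on the log2 scale, and 14 of the 15 genes span 227.3 kb or more. ROR1, a Wnt-binding receptor tyrosine kinase (407.5 kb), read 9.98, 9.93 and 10.03 in the controls and 7.69, 8.02 and 7.84 after the drug (-2.13 ± 0.22, adjusted p = 2.11e-05). ARID1B, a DNA-binding subunit of SWI/SNF remodelers (434.8 kb), read 9.23, 9.22 and 8.74 and then 6.17, 7.21 and 7.45. RIMS2, a presynaptic scaffold (755.5 kb), went from 8.62, 8.70 and 8.74 to 6.05, 7.19 and 6.81. In these genes the treated arrays spread more widely than the controls but stayed at least 1 unit below them.

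The remaining members included SUPT3H, a SAGA coactivator subunit (-1.90 ± 0.36), GSK3B, the kinase of Wnt and insulin signalling (-1.62 ± 0.18), MLLT3, a reader in the super elongation complex (-1.61 ± 0.17), GNAQ, a G protein alpha subunit (-1.59 ± 0.11), and EXT1, a heparan sulfate polymerase (-1.55 ± 0.12). EXT1 read 11.32, 11.37 and 11.27 in the controls and 9.77, 9.84 and 9.69 after treatment, so the fall was not limited to genes with a low signal. Of its 16 probe sets 13 fell and none rose. The exception in length was CWC15, a spliceosome component of 10.9 kb. It read 9.99, 9.14 and 9.49 and then 7.55, 9.13 and 7.02, fell in 1 of its 9 probe sets, changed by -0.35 as a mean of them (adjusted p = 0.113) and lost its call when an array was left out (adjusted p = 0.0813).

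Gene length separated the 2 directions across the whole table. Coding genes were binned by the span of the gene in RefSeq. Of 4590 genes under 10 kb 8.10% rose and 1.15% fell, and of 5011 genes of 10 to 30 kb 10.3% rose and 1.22% fell. Genes of 30 to 100 kb were nearly balanced, at 4.75% and 4.01% of 5113, but not under the housekeeping shift, where 2.07% rose and 9.52% fell. Of 2449 genes of 100 to 300 kb 1.31% rose and 19.2% fell, and of 739 genes of at least 300 kb 0.947% rose and 20.3% fell. Under the shift 3.92% rose and 2.07% fell in the shortest bin, 4.93% and 3.59% of genes of 10 to 30 kb, and 27.6% and 24.5% fell in the bins of 100 to 300 kb and at least 300 kb. The coding genes that rose had a median span of 16 kb, those that fell 144.1 kb, and those that did not pass 25.9 kb. Among the 157 coding genes that fell at least 2-fold 135, or 86.0%, spanned at least 100 kb, against 17.8% of all coding genes. Among the 203 that rose at least 2-fold 161, or 79.3%, spanned under 30 kb, against 53.6%.

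The pattern was present on every array. The median log2 signal of genes of at least 300 kb minus that of genes under 10 kb, each gene centred on its mean over the 6 arrays, was 0.24, 0.16 and 0.14 in the controls and -0.15, -0.15 and -0.12 in the treated arrays. The groups did not overlap. The mean difference was -0.32 (exact permutation test, two-sided, p = 0.1, the smallest value that 3 against 3 arrays allow). This quantity compares genes within an array and is not moved by a constant shift of the array. Control signal differed between the bins, with medians of 6.47 for the shortest and 7.48 for the longest genes. Among genes with a control signal of at least 7.1, 33.5% of 424 genes of at least 300 kb and 26.9% of 1696 genes of 100 to 300 kb fell, and 14.9% of 1869 genes under 10 kb rose.

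Single probe sets gave the same order. In genes of at least 300 kb 10.93% of 18226 probe sets fell and 0.17% rose, adjusted over all 352859 probe sets, of which 2.16% fell and 1.44% rose. In genes under 10 kb 0.37% of 33292 fell and 3.32% rose. Within the longest genes 279 had at least 1 probe set that fell, 27 at least 1 that rose, and 10 had both. The 7 genes of at least 300 kb that rose by their brightest probe set were KIF6, RGS6, MEGF11, DLC1, FRMD4B, UTRN and SPECC1. UTRN, a dystrophin relative, shows how the choice of probe set matters: its brightest probe set rose by 0.54 ± 0.16, while 35 of its 71 probe sets fell and none rose in the adjustment over all probe sets, and their mean fell by 1.31 (adjusted p = 8.23e-08). The means over all probe sets of SPECC1 and RGS6 also turned, to -0.41 (adjusted p = 0.00361) and -0.07 (adjusted p = 0.692). Of these 7 only KIF6 and DLC1 kept the call when each array was left out in turn, and in each of them 1 of 24 probe sets rose. Their means over all probe sets did not pass, at 0.14 for KIF6 (adjusted p = 0.527) and 0.16 for DLC1 (adjusted p = 0.404).

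**Figure D2:**
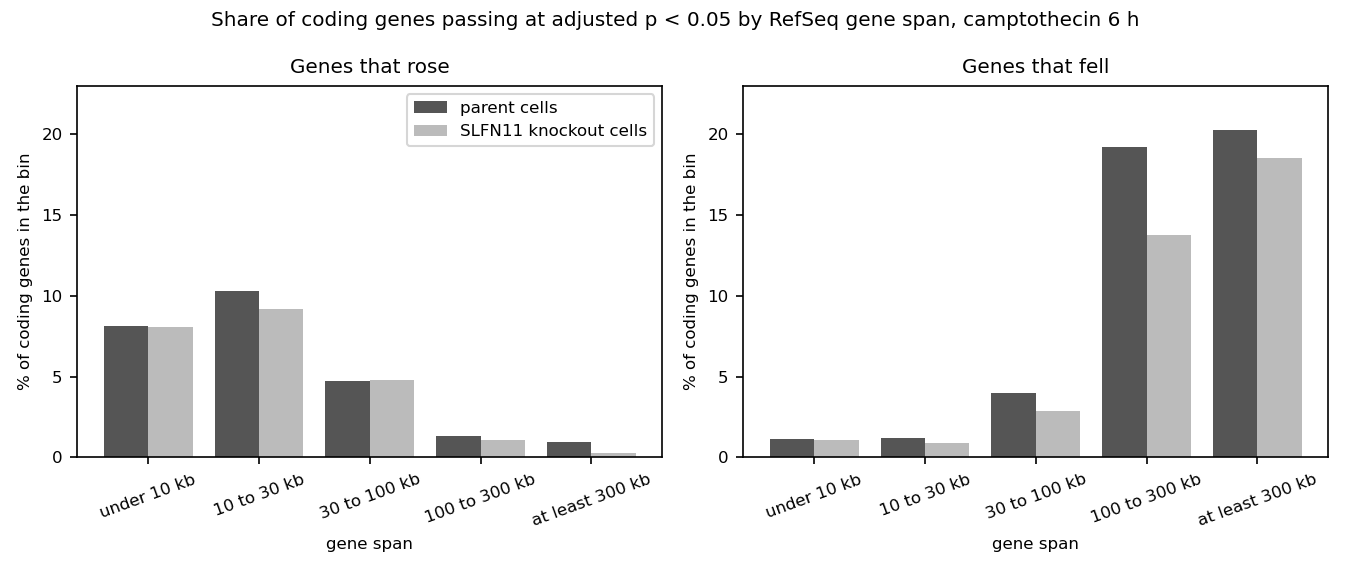
Share of coding genes, in percent of each bin of RefSeq gene span, that rose (left) or fell (right) at an adjusted p below 0.05 after 6 h of camptothecin, with dark bars for parent and light bars for knockout cells. In parent cells the share that fell is 1.15% under 10 kb and 20.3% at 300 kb or more, and the share that rose is 8.10% and 0.947%, with the deposited scaling. Under the housekeeping shift the parent shares that fell are 2.07% and 24.5%, and 3.92% rose under 10 kb.

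Rises and falls within several complexes and families are given here with the spans of the genes. Of 22 transcription elongation genes 8 rose and 2 fell (5 and 2 under the housekeeping shift). The cyclin CCNL1 (1.23 ± 0.17), MEPCE (1.02 ± 0.09), which caps the 7SK RNA, the P-TEFb cyclins CCNT2 (0.68 ± 0.11) and CCNT1 (0.56 ± 0.12), the P-TEFb inhibitor HEXIM1 (0.52 ± 0.14) and the bromodomain protein BRD2 (0.55 ± 0.09) were among the risers, which spanned 3.6 to 79.4 kb. The fallers AFF1, a super elongation complex scaffold (-0.47 ± 0.09), and the kinase CDK13 (-0.39 ± 0.08) span 206.0 and 149.3 kb. Of 15 kinases of the CLK, SRPK and DYRK families, only some of which phosphorylate splicing factors, 4 rose and 2 fell (3 and 4 under the shift, with a median of -0.08). CLK1 (0.97 ± 0.13), CLK3 (0.78 ± 0.12), CLK4 (0.70 ± 0.13) and CLK2 (0.53 ± 0.11) rose and span 10.6 to 24.4 kb, although 1 of the 9 CLK2 probe sets rose and their mean changed by 0.08 (adjusted p = 0.722), while SRPK2 (-1.03 ± 0.11) and HIPK2 (-0.81 ± 0.11) fell and span 284.6 and 216.4 kb. SRSF7, SRSF3, SRSF6 and SRSF4 were the 4 risers among 12 SR splicing factors, at 0.75 to 0.52, with no faller (3 and 1 under the shift).

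Mediator, the bridge between activators and RNA polymerase II, had 6 risers and 5 fallers among 31 subunits (2 and 5 under the housekeeping shift, where the median turned from 0.11 to -0.05). MED13L (319.1 kb) fell by 1.06 ± 0.11 and CDK8 by 0.66 ± 0.14, whereas MED19 rose by 0.66 ± 0.12. MED11, of 2.2 kb, and MED21, of 16.4 kb, fell by 0.56 ± 0.13 and 0.58 ± 0.12, so length did not sort all subunits. The fall of MED21 rests on 1 of its 11 probe sets, whose mean changed by -0.05 (adjusted p = 0.833). Of 25 SWI/SNF subunits 2 rose and 5 fell (0 and 5 under the shift). Besides ARID1B these were SMARCC1, SMARCA2, ARID2 and SS18, at -0.49 to -0.37 and 74.97 to 196.6 kb, while the short DPF1 and DPF2 rose. Of 22 histone acetyltransferases and methyltransferases none rose and 3 fell, NSD1 (-0.80 ± 0.17), KMT2C (-0.57 ± 0.12) and CREBBP (-0.45 ± 0.12), all of 155.7 kb or more. The remodeler CHD2, of 127.7 kb, rose by 0.79 ± 0.10, and 7 of its 51 probe sets rose with none falling, while CHD9 fell by 0.84 ± 0.13.

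Of 25 receptor tyrosine kinases 1 rose and 2 fell, 4.0% and 8.0%, near the shares over all genes. EGFR was not in this list and was the 1 faller among 13 EGF family genes. EGFR (192.6 kb) read 10.45, 10.58 and 10.65 in the controls and 9.28, 9.39 and 9.17 after the drug, a fall of 1.28 ± 0.11 (adjusted p = 5.05e-06) that 26 of its 33 probe sets shared, while the gene of its ligand HBEGF (13.8 kb) rose. The 2 fallers of the receptor list were ROR1 and IGF1R (316.0 kb), and IGF1R fell by 1.01 ± 0.12. The riser, FGFR4 (11.2 kb), changed by 1.14 ± 0.28 in its brightest probe set, but 1 of its 16 probe sets rose and their mean changed by 0.24 (adjusted p = 0.187). The Wnt effector TCF7L2 fell by 1.26 ± 0.14 and SMAD3 of the TGF-beta pathway by 0.58 ± 0.10, although the mean over the 19 probe sets of SMAD3 changed by 0.13 (adjusted p = 0.639). Of 25 genes at common fragile sites, which are long and late replicating, none rose and 6 fell, with spans of 181.6 to 847.9 kb. PTPRG fell by 1.12 ± 0.23, LPP by 0.97 ± 0.16 and EXOC4 by 0.62 ± 0.10. That share of 24.0% is near the 20.3% of all genes of at least 300 kb. WWOX, of 1113.0 kb and well expressed, read 11.59, 11.43 and 11.64 before and 11.60, 11.35 and 11.39 after, and its change of -0.11 ± 0.12 did not pass. The groups overlapped, so great length alone did not go with a lower signal in every gene.

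Genes of the cell cycle differed by phase. Of 18 MCM and origin licensing genes 9 rose and none fell (3 and 2 under the housekeeping shift), with a median of 0.35. CDC6, the loader of the MCM helicase, read 10.97, 10.99 and 10.88 and then 11.76, 11.88 and 11.78 (0.86 ± 0.10), and its partner CDT1 rose by 0.83 ± 0.13. Outside the licensing genes the flap nuclease FEN1 rose by 0.82 ± 0.09. E2F2 (1.44 ± 0.20), cyclin E1 (CCNE1, 1.00 ± 0.20) and CDC25A (0.85 ± 0.12) rose among 7 risers and 4 fallers in 22 E2F and G1/S genes. RB1, the brake on these factors (178.1 kb), fell by 0.66 ± 0.13, and PRIM2, a primase subunit of 425.3 kb, by 1.04 ± 0.15 although 7 of 28 fork genes rose.

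Of 40 G2/M and spindle genes none rose and 19 fell, with a median of -0.32. The spindle motor CENPE fell from 11.25, 11.15 and 11.03 to 10.44, 10.13 and 10.33 (-0.84 ± 0.13). The checkpoint kinases BUB1 (-0.77 ± 0.11) and BUB1B (-0.76 ± 0.13), the mitotic kinase AURKA (-0.74 ± 0.11), the ubiquitin conjugase UBE2C (-0.67 ± 0.13) and cyclin B1 (CCNB1, -0.57 ± 0.11) fell, and so did the mitotic kinase PLK1 outside this list, from 12.65, 12.71 and 12.61 to 11.74, 11.73 and 11.36. FOXM1 and MYBL2, which activate many of these genes, changed by 0.06 and 0.23 and did not pass. In these bulk samples fewer cells in a phase and less RNA per cell cannot be told apart. All 19 fallers span under 100 kb, from 4.3 to 92.5 kb, with 6 of 21 members under 30 kb among them. The count was 11 to 15 when 1 array was left out and 6 when only the 6 arrays were fitted. Of 20 ATR and CHEK1 checkpoint genes 6 rose and none fell, among them the clamp subunits RAD9A (0.80 ± 0.15), RAD1 (0.54 ± 0.09) and HUS1 (0.39 ± 0.11). CHEK1 (0.21 ± 0.11) and ATR (-0.21 ± 0.13) did not pass, but as means over all probe sets CHEK1 rose by 0.32 (adjusted p = 0.0454) and ATR fell by 0.43 (adjusted p = 0.00636). TOP1, the target of the drug, changed by -0.24 ± 0.10 and did not pass (adjusted p = 0.151), while the mean over its probe sets fell by 0.48 (adjusted p = 0.0109).

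Histone genes diverged within the family. Of 22 measured replication-dependent core histone genes 5 rose and 1 fell, with a median of -0.004. H2BC15 rose from 3.88, 4.35 and 4.66 to 7.50, 7.11 and 6.96, with control values between the lower quartile (3.0 to 3.03) and the median of the arrays, while H2BC14 fell from 10.10, 10.11 and 9.99 to 8.73, 8.56 and 8.42 and the linker histone H1-5 from 10.95, 11.03 and 10.60 to 9.48, 9.62 and 9.37. The risers had low and the fallers high control signals. Core histone genes are near-identical copies, so probe sets may share signal and these values are uncertain for single genes. In knockout cells 2 core histone genes rose and 8 fell, and the difference between the genotypes passed for 8 of the 22, all higher in parent cells. Of 13 genes that transcribe or process histone mRNA 5 rose and none fell, among them HINFP (0.60 ± 0.12) and CASP8AP2 (0.67 ± 0.16).

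Other short genes rose in groups. Of 11 SNHG genes, non-coding hosts of small nucleolar RNAs whose spliced transcripts are degraded during translation, 6 rose and none fell, with a median of 0.83. SNHG12 read 9.48, 9.68 and 9.63 before and 11.04, 11.03 and 11.12 after (1.47 ± 0.12), and SNHG8 rose by 1.31 ± 0.16 and SNHG32 by 0.84 ± 0.11. The non-coding transcripts EPB41L4A-AS1 and ADIRF-AS1 rose by 1.42 ± 0.15 and 1.46 ± 0.29, whereas of 583 antisense transcripts only 16 rose and 6 fell, 2.74% and 1.03%, below the shares over all genes (9 and 23 under the housekeeping shift). The non-coding fallers ANKRD36BP2, LINC00630 and ZNF252P changed by -1.41 ± 0.16, -1.03 ± 0.26 and -1.14 ± 0.27, the last 2 with an adjusted p of up to 0.0847 and 0.0731 when an array was left out. Of 513 ZNF zinc finger genes, most of them repressors of transposons or of other genes, 89 rose and 7 fell, with a median of 0.24 (54 and 12 under the housekeeping shift, 53 to 73 risers when 1 array was left out). ZNF726 read 4.804, 5.24 and 5.04 and then 6.69, 6.83 and 7.26. The 89 risers had a median span of 19.6 kb and the 7 fallers 137.2 kb. ZNF genes share sequence, so single members are uncertain. Of 27 ribosome biogenesis genes 8 rose and none fell (4 and 1 under the shift), led by the polymerase I and III subunit POLR1C (1.17 ± 0.14) and BYSL (0.99 ± 0.13), while of 53 cytosolic ribosomal protein genes 4 rose and 1 fell. Of 23 sterol synthesis genes 4 rose and none fell (2 and 1 under the shift), with HMGCS1 at 1.01 ± 0.12 and INSIG1 at 0.93 ± 0.13.

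**Figure D3:**
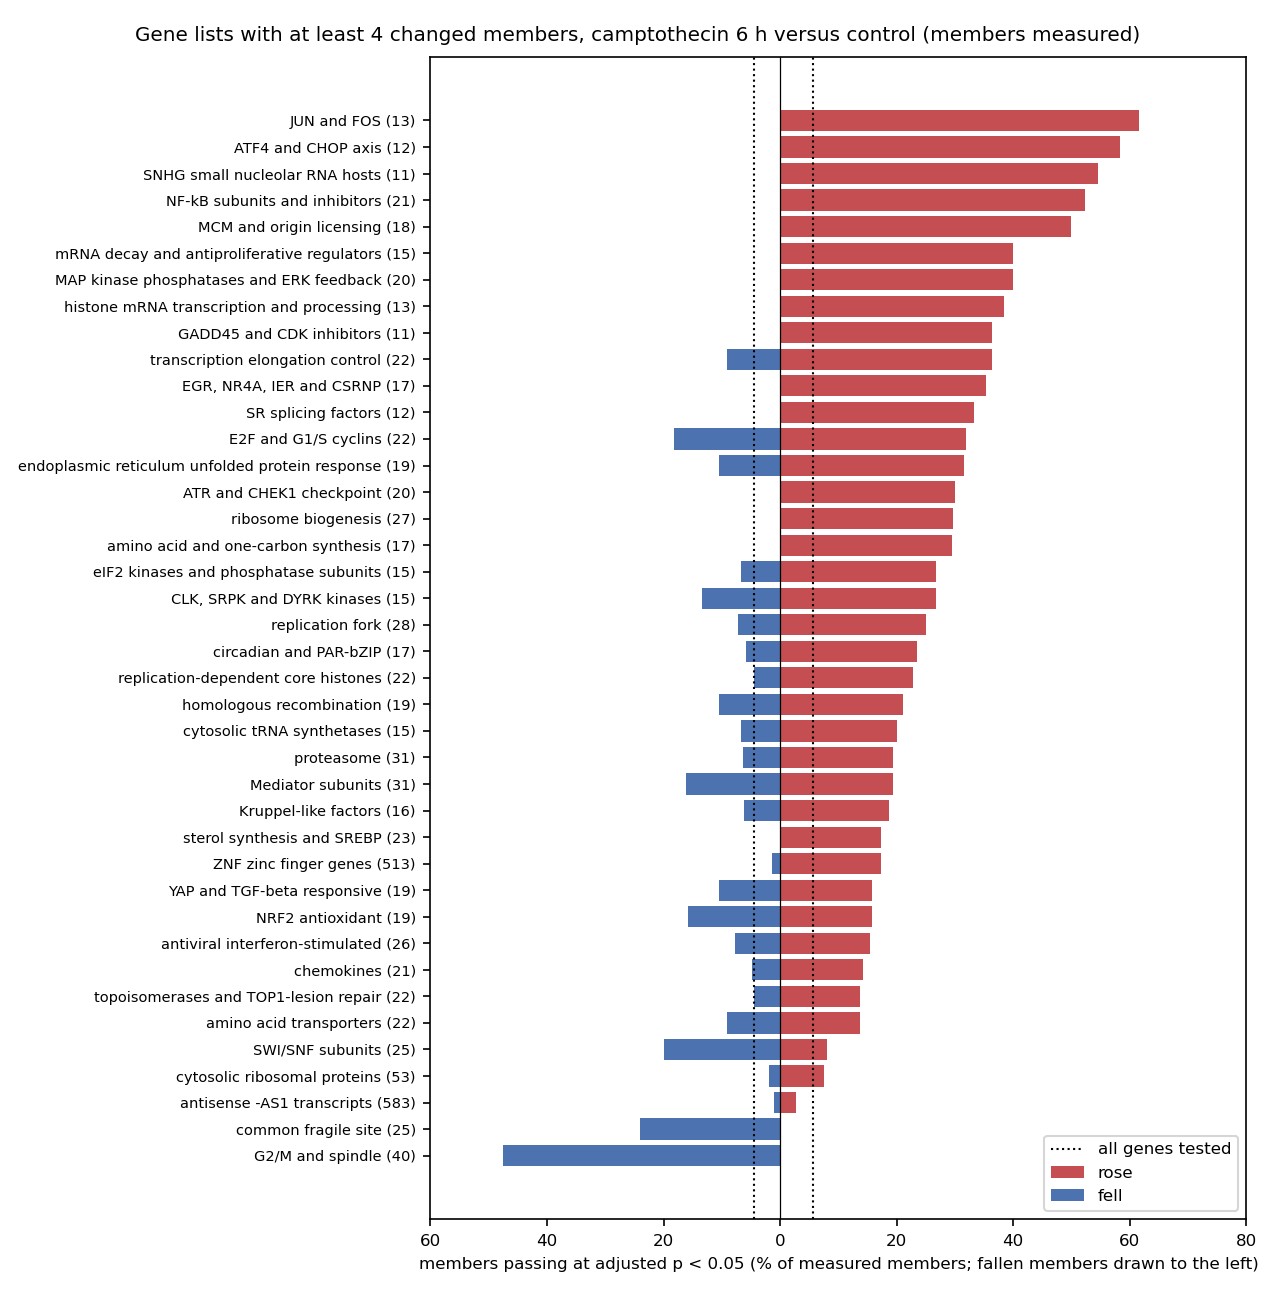
Members of each gene list that rose (right) or fell (left) after camptothecin, in percent of the measured members, whose number stands in parentheses, for lists with at least 4 changed members. Dotted lines mark the shares over all genes, 5.67% and 4.42%. JUN and FOS, ATF4 and CHOP axis and SNHG genes lie far to the right, and G2/M and fragile site genes to the left. Under the housekeeping shift the medians of several mixed lists turn below 0, as does the median of all genes, at -0.12. Lists and members were chosen with earlier results of these data known, so their distance from the dotted lines is no independent evidence.

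Homologous recombination, the repair route for broken forks, was mixed. Of 19 measured genes 4 rose and 2 fell (1 and 4 under the housekeeping shift). XRCC3, a recombinase paralog, rose by 0.87 ± 0.12, while the helicase BRIP1 (184.4 kb) fell by 0.49 ± 0.13. Of 31 proteasome subunits 6 rose and 2 fell (2 and 3 under the shift), and the regulatory particle members PSMD3 (0.55 ± 0.09) and PSMC5 (0.51 ± 0.09), of 17.2 and 4.6 kb, stood against PSMD1 (-0.44 ± 0.11) and PSMD14 (-0.41 ± 0.11), of 116.0 and 103.3 kb. Of 6 APOBEC3 genes, which are related in sequence, 2 rose and 1 fell (1 and 1 under the shift), and the cytidine deaminase APOBEC3B rose by 1.21 ± 0.16. PLK3, a stress-responsive relative of PLK1, rose by 1.55 ± 0.17.

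In the following 5 stress and repair lists at most 3 genes changed in either direction. Of 20 hypoxia and glycolysis genes the glucose carrier SLC2A1 fell by 0.61 ± 0.12 and none rose. Of 17 heat shock genes 2 rose, 1 fell and the median was -0.04, and of 19 NRF2 antioxidant genes 3 rose and 3 fell (0 and 5 under the housekeeping shift). The 16 Fanconi anemia genes gave 1 riser and 1 faller, and the 22 topoisomerase and topoisomerase I lesion repair genes 3 risers, the protease SPRTN (0.75 ± 0.13), TOPORS (0.62 ± 0.12) and TOP3A (0.48 ± 0.13), and 1 faller, TOP2A. In the Schlafen family 2 of 6 genes rose, with SLFN5 at 1.16 ± 0.15. Several lists became even or turned under the housekeeping shift: 2 rose and 2 fell among the topoisomerase, antiviral and TNF family genes, 5 and 5 among the E2F and G1/S genes, 1 and 1 among the tRNA synthetases, and 0 and 1 among the heat shock genes.

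The knockout arrays show which of these changes were shared. In knockout cells 1940 genes (8.72%) changed at 6 h, 1185 upward (5.32%) and 755 downward (3.39%). The difference of the 2 responses, tested as an interaction, passed for 248 genes (1.11%), with 174 higher in parent cells (0.782%) and 74 lower (0.332%). It passed for 115 genes when only the 12 arrays of these 4 groups were fitted and for 516 with a filter on level. The balance turned with the scaling, to 117 higher and 227 lower under the housekeeping shift, and was nearly even with the filter, at 263 and 253. The parent change enters this difference, so genes picked for a large parent change are favoured in it, while the knockout change comes from other arrays. All of the 15 coding genes that rose most, selected with a group mean of at least 7.1 and no overlap, differed between the genotypes. Their median log2 change was 2.43 in parent and 0.21 in knockout cells, where 3 rose, H2BC15, GADD45A and SERTAD1, and 1 fell. ATF3 changed by -0.79 ± 0.31 and DDIT3 by -0.23 ± 0.31 in knockout cells, and neither passed. In contrast 13 of the 15 that fell most also fell in knockout cells, with medians of -1.64 and -1.45, and the difference passed for 1, GNAQ. ROR1 fell by 1.78 ± 0.22 and RIMS2 by 2.35 ± 0.32 there. For ROR1 the difference between the genotypes was -0.34 with a 95% interval of -0.999 to 0.31.

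Larger sets were compared in the same way. Of the 224 genes that rose at least 2-fold 49 rose in knockout cells and the difference passed for 88, all larger in parent cells. Of the 172 that fell at least 2-fold 118 fell in knockout cells and the difference passed for 4. Among the 620 coding genes of at least 100 kb that fell 347 fell in knockout cells, 595 were below 0 there, and the difference passed for 9. Of the 114 coding genes under 30 kb that fell 22 fell in knockout cells, with medians of -0.57 and -0.10, and the difference passed for 12, of which 11 fell more in parent cells. In knockout cells 18.5% of genes of at least 300 kb and 13.8% of those of 100 to 300 kb fell, and 8.06% of those under 10 kb rose. Among the lists, the difference passed for 7 of 12 ATF4 and CHOP axis genes, 6 of 13 JUN and FOS genes, 5 of 21 NF-kB genes and 4 of 11 SNHG genes, all higher in parent cells, and for none of the 40 G2/M genes, of which 16 fell in knockout cells. Licensing genes rose there too, with 8 of 18, and 1 of them differed between the genotypes.

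In 17 genes camptothecin raised the signal in parent cells and lowered it in knockout cells, each past the threshold. These were picked after their values were seen. They included DDIT4 (1.93 and -1.05), KLF6 (1.10 and -1.004), CXCL8 (1.64 and -0.67), BIRC3 (1.23 and -0.67), NFKBIA (1.20 and -0.45), DUSP1 (1.08 and -0.52), ZFP36L1 (1.03 and -0.57), the matricellular protein CCN1 (0.50 and -0.83), the EGFR feedback inhibitor ERRFI1 (0.49 and -0.42) and the transcription factor ETS1 (0.43 and -0.46). KLF6 had the smallest adjusted p of the difference among these (2.11e-06). In 10 genes the directions were the other way round, among them MBNL2, a splicing regulator (-0.87 and 0.54), CXCL16 (-0.52 and 0.66) and MED21 (-0.58 and 0.41), whose parent change did not pass as a mean over its probe sets. The genotypes did not start from equal levels in several of these genes. Knockout controls averaged 10.28 for BIRC3, 9.50 for CXCL8, 11.36 for KLF6 and 11.55 for NFKBIA. Parent controls averaged 8.75, 8.34, 10.52 and 10.78. For DDIT4 the means were closer, at 8.40 and 8.01. CXCL16 started lower in knockout controls, at 6.87 against 7.65. The part played by the starting level was not tested.

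**Figure D4:**
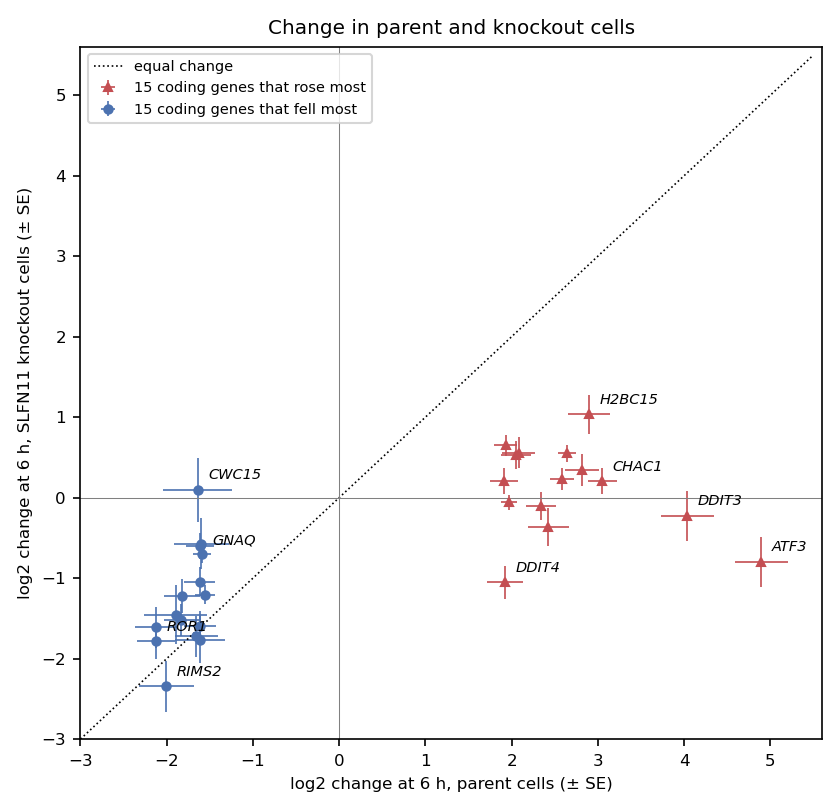
Log2 change after 6 h of camptothecin in parent cells (horizontal) and knockout cells (vertical) with standard errors, for the 15 coding genes that rose most (triangles) and the 15 that fell most (circles) in parent cells. Genes had to have a parent group mean of at least 7.1 and no overlap of the parent groups. The dotted line marks equal change. The risers lie below it, with knockout changes from -1.05 (DDIT4) to 1.03 (H2BC15), and 14 of the 15 fallers are below 0 on both axes.

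From 6 h to 12 h 101 genes changed in parent cells (0.454%), 19 upward (0.0854%) and 82 downward (0.368%). The downward balance turned to 49 upward and 37 downward without 6 h replicate 2, and was 9 and 12 under the housekeeping shift. The count depended on the fit: 330 genes passed with all 36 arrays, and 0 passed in limma with only the 6 arrays of the 2 times, where 2258 had an unadjusted p below 0.05. The 6 h arrays enter both this comparison and the choice of genes. Of the 224 genes that had risen at least 2-fold 28 were lower at 12 h and none higher. KDM6B and SERTAD1 were lower by 1.14 (adjusted p = 0.0109) and 1.12 (adjusted p = 0.00188). ATF3 averaged 9.98 at 6 h and 9.13 at 12 h, a difference of -0.85 ± 0.31 that did not pass. Of the 172 that had fallen at least 2-fold 4 were higher and 1 lower at 12 h. Of the 620 coding genes of at least 100 kb that had fallen 8 were lower still and 3 higher. LPP, a focal adhesion protein of 737.7 kb, averaged 10.72 in the controls, 9.74 at 6 h and 8.21 at 12 h, a further fall of 1.53 ± 0.16 (adjusted p = 0.00094), and EXOC4, an exocyst subunit of 847.9 kb, fell further by 0.78 ± 0.10 (adjusted p = 0.00583). TRERF1, a zinc finger regulator, read 8.003, 7.80 and 7.69 in the controls and 6.04, 6.36 and 5.62 at 6 h, and was 1.12 higher at 12 h (adjusted p = 0.033). IFITM3 averaged 7.37 in the controls, 5.82 at 6 h and 7.26 at 12 h, a return of 1.45 ± 0.14 (adjusted p = 0.000441). In knockout cells its signal averaged 11.27 in the controls and 11.04 at 6 h, so the 2 genotypes started from different levels of this gene.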

How the data were processed

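RNA was hybridised to GeneChip arrays after labelling 100 ng with the WT Plus kit, per the labels' protocols. The deposited values are log2 signals of 352859 probe sets, made with Partek and RMA per the submitters' processing notes, whose versions and genome build are not given in the sources used here. No array pair held identical values.

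Of the probe sets 259224 carry 1 gene symbol, 13116 several and 80519 none. Symbols were updated through RefSeq, 65 stayed unmatched, and each of 22260 genes (17902 coding) was read from its brightest probe set. limma 3.58.1 in R 4.3.3 fitted 18 DU145 arrays in 6 groups without a block, and p-values were adjusted by Benjamini-Hochberg over all genes. Errors after ± are standard errors of this fit with 3 arrays a group. The number of arrays limits the precision.

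Named genes were the 15 coding and 3 non-coding genes with the largest passing change in each direction, with a group mean of at least 7.1 and no overlap, SLFN11, and members of 66 lists. Members and lists were chosen with earlier results of these data known. Spans and promoters are RefSeq, GRCh38.p14. The test was tried on simulated data. Alternatives covered the arrays fitted, weights, block, variance trend, level filter, scaling, probe set summary and threshold.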

Additional observations from a re-analysis of the deposited data

Results flagged for a closer look

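The response at 6 h differed between the genotypes, by the interaction test of the difference itself (limma, adjusted p below 0.05 over 22260 genes), in 74 of the 197 genes named above. Over all genes it passed for 248 (1.11%). Many of the 197 were named for a large parent change, which enters the difference, and some for opposite changes in the 2 genotypes. The count among them is therefore partly fixed by that choice. The values are log2 changes in parent minus knockout cells, and no cause was tested. In the stress circuit the difference was 5.69 for ATF3, 4.26 for DDIT3, 2.84 for CHAC1, 1.88 for ASNS, 1.47 for STC2, 1.41 for CEBPB, 1.05 for CEBPG and 0.73 for ATF4. PPP1R15A differed by 2.44, PPP1R15B by 0.68, CTH by 1.34, SLC3A2 by 0.75, SLC7A5 by 0.55, AARS1 by 0.89, SESN2 by 2.36, DDIT4 by 2.98 and HERPUD1 by 1.37.

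Immediate early genes and their feedback differed by 1.86 for JUN, 1.16 for JUNB, 1.60 for JUND, 1.21 for FOSL2, 0.66 for FOSL1, 1.77 for CSRNP1, 2.22 for IER2, 1.32 for EGR1, 1.91 for KLF10, 2.10 for KLF6, 1.60 for DUSP1 and 1.60 for ZFP36L1. In the NF-kB, cytokine and interferon genes the values were 2.03 for TNFAIP3, 1.65 for NFKBIA, 1.23 for NFKB2, 1.91 for BIRC3, 2.79 for CCL20, 2.31 for CXCL8, 1.12 for LIF, 1.28 for HBEGF, 1.71 for TNFRSF9, 1.52 for IRF1, 1.57 for IFIT2, -1.32 for IFITM3 and -1.18 for CXCL16.

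Arrest and survival genes differed by 2.09 for GADD45A, 1.80 for GADD45B, 1.24 for CDKN1A, 0.85 for CDKN2B, 1.58 for PMAIP1, 1.06 for BCL2A1, 0.71 for MCL1, 2.47 for TXNIP, 1.37 for MYC, 1.53 for KDM6B, 1.28 for SERTAD1 and 2.18 for NFIL3. Among RNA and chromatin genes CCNL1 differed by 1.12, CLK1 by 1.06, CLK3 by 0.98, SRSF3 by 0.78, SRSF6 by 0.54, CHD2 by 0.78, MED21 by -0.99, MBNL2 by -1.41, H2BC15 by 1.86, H2BC14 by 1.04, SNHG12 by 1.31, SNHG8 by 1.37, SNHG32 by 1.07, EPB41L4A-AS1 by 1.62 and POLR1C by 0.90. The remaining values were 0.81 for HMGCS1, 1.33 for CCN1, 0.91 for ERRFI1, 0.89 for ETS1 and -0.88 for GNAQ.

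In parent cells 19 of the named genes differed between 6 h and 12 h, against 101 of all genes tested (0.454%). The 6 h arrays enter both this comparison and the choice of names, and some genes were named for this difference. They do not measure how common it is. The log2 change from 6 h to 12 h was -0.89 for CEBPB, -0.65 for STC2, -0.55 for PPP1R15B, -0.79 for JUN, -0.55 for FOSL2, -0.82 for KLF10, -0.79 for ZFP36L1, -0.71 for CDKN2B, -0.74 for MYC, -0.81 for MXD1, -1.14 for KDM6B, -1.12 for SERTAD1, -0.55 for CHD2, -0.68 for HMGCS1, -0.70 for INSIG1, -1.53 for LPP and -0.78 for EXOC4. IFITM3 and TRERF1 were higher at 12 h, by 1.45 and 1.12.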

How the results depend on the processing

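The 2247 genes changed in parent cells at 6 h became 3437 with the mean of all probe sets, 866 when only the 6 arrays were fitted, 1051 at an adjusted p below 0.01, 396 with a minimum of 2-fold, 12708 of 352859 probe sets when all were tested, and 1398 to 1649 with 1 array left out, lowest without treated replicate 3. The 248 genotype differences became 506 with all 36 arrays in 1 fit, 422 with array weights, 516 with a filter on level, 500 with the mean of all probe sets, 115 with only the arrays compared, 398 with a variance trend, 344 under the housekeeping shift (117 higher and 227 lower), 85 at the stricter threshold and 144 to 228 with 1 array left out, lowest without knockout treated replicate 1 and next lowest without parent treated replicate 3 (146) and knockout treated replicate 2 (156). The 101 changes from 6 h to 12 h became 330 with all 36 arrays, 279 with a filter, 252 with the mean of all probe sets, 43 with the replicate number as a block, 21 under the housekeeping shift, 204 with a variance trend and 14 at the stricter threshold. They became 0 in limma with only the 6 arrays of 6 h and 12 h, where 2258 genes had an unadjusted p below 0.05 against 2489 in the full fit, and 17 to 86 with 1 array left out: 17 and 19 without 6 h replicates 1 and 3, and 56, 21 and 23 without 12 h replicates 1, 2 and 3. Comparisons of 12 h with 6 h therefore rest on the fit. Except for the stricter thresholds, the filters and the smaller fits, the cause of these moves was not tested.

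The replicate block gave 1996 genes for the 6 h response. Deviations of same-numbered control and treated arrays correlated at -0.014, -0.037 and 0.017, so no shared deviation was seen. Such values cannot tell whether same-numbered arrays came from 1 culture or day. The median log2 change of coding genes of at least 300 kb minus that of genes under 10 kb was -0.223, -0.425 with a filter on level and -0.274 to -0.209 with 1 array left out. With the mean of all probe sets the sign turned for EGR2 (-0.126), RGS6 (-0.072), UTRN (-1.308), SPECC1 (-0.409), SMAD3 (0.127) and FOXM1 (-0.152), and FOXM1 was -0.098 under the housekeeping shift. Genes with a low signal, such as H2BC15 in the controls, are limited by background.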
